A study of Mus musculus with 6 samples.

Results

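Marker genes of white blood cells were read in the hindbrain of wild-type and transgenic mice. The markers were 10 genes that stand for neutrophils (S100a8, S100a9, Ngp, Camp), monocytes (Ccr2, Ly6c2), T cells (Cd3e, Cd8a) and B cells (Cd79a, Ms4a1). They were taken as every non-control probe that carried one of these gene names, which gave 13 of the 56605 non-control probes on the array. Cd3e, Cd8a and Ms4a1 had a pair of probes each, and the other 7 genes had 1 probe.

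RNA came from brainstem and cerebellum of mice aged 16 weeks, with 3 wild-type samples and 3 samples labelled MSA Transgenic. The labels do not spell out MSA, and they name neither the transgene nor the promoter or cell type that drives it. Both genotypes carry the same mixed strain label of C57BL/6, 129 and C3H, and no sex is given. Each sample was hybridised to 1 single-colour array, and because the labels do not say that the samples are separate animals, every p-value reflects sample-to-sample spread that may be technical. Markers of the labelled tissue were read throughout: 4 genes of cerebellar neurons (Gabra6, Pcp2, Calb1, Cbln1), 4 of brainstem neurons (Slc6a5, Chat, Tph2, Hoxb5) and 2 of myelin-forming cells (Mbp, Mobp) lay well above background on all 6 arrays.

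The healthy brain holds few white blood cells in its tissue proper, because the vessel wall restricts their entry. Its resident immune cells are microglia, while neutrophils, monocytes and lymphocytes pass with the blood or stay in the meninges and the choroid plexus. In inflammation neutrophils and monocytes can enter first, led by chemokines and by adhesion molecules of the vessel wall. A dissected piece of brain therefore carries leukocyte RNA from blood left in its vessels as well as from cells in the tissue, and an array of whole tissue cannot tell fewer cells of a type apart from less RNA per cell.

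The probes themselves decide what could be measured, and those that carry the detection results are shown here 5′ to 3′ as deposited, with coordinates on build mm9. They are the probes of the neutrophil gene S100a8 (chr3:90473778-90473837, plus strand), which was read on every array, of Ngp (chr9:110324266-110324814, plus strand), which was read on 1 array, and of Cd8a (chr6:71323885-71323944, plus strand) and Cd79a (chr7:25684357-25684614, plus strand), which were read on none. The Ngp and Cd79a probes are 60 bases long but span 549 and 258 bases of the genome, so their target lies across at least 1 intron. No base is set in capitals in these 4 sequences.
S100a8 probe: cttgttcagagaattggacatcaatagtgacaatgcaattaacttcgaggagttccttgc
Ngp probe: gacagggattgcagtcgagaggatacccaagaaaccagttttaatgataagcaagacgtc
Cd8a probe: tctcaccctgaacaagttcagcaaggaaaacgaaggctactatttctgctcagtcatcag
Cd79a probe: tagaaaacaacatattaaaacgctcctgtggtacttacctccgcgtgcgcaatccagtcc

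The monocyte marker Ly6c2 is the 1 gene whose probe has a near copy on the array. Its probe (chr15:74938637-74938695, minus strand, mm9) differs from that of Ly6c1 (chr15:74875495-74875554, minus strand), a gene of brain endothelial cells, at 3 of 60 bases. Counted from 1 at the 5′ end, with the base of the Ly6c2 probe first, the differences are C8G, G57A and T60C. The last 30 bases of both are shown because they hold 2 of the 3 differences, set in capitals.
Ly6c2 probe, bases 31 to 60: tctggggtcctgcagggttcccatgtGtgT
Ly6c1 probe, bases 31 to 60: tctggggtcctgcagggttcccatgtAtgC

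The signal of the Ly6c2 probe may therefore include Ly6c1 RNA. For the other 12 marker probes the nearest of all other probes differed at 27 to 30 of 60 bases when aligned base by base.

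The Cd3e pair differs in place along the transcript, and the last 30 bases of each are shown for that reason. The upstream probe (chr9:44807254-44807313, minus strand, mm9) lies 426 bases before the downstream probe (chr9:44806828-44806887). The downstream probe holds the polyadenylation signal AATAAA, in capitals, and it is the only one of the 13 probes that holds it.
Cd3e upstream probe, bases 31 to 60: atagctaagccctttcctacagctttctgt
Cd3e downstream probe, bases 31 to 60: taatgcaaaaggcAATAAAgtgtattggct

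The remaining probes lie, on mm9, at chr3:90496573-90496632 (S100a9), chr9:109749911-109749970 (Camp), chr9:124022948-124023007 (Ccr2), chr6:71328911-71328970 (Cd8a), and chr19:11324334-11324393 and chr19:11325409-11325468 (Ms4a1). No annotation of that build was used here, so exons and introns are not named.

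Detection was taken from the scanner software's flag for a signal well above background. The flag was set on all 6 arrays for 7 of the 13 probes, 1 each of S100a8, S100a9, Camp, Ccr2, Ly6c2, Cd3e and Ms4a1, against 62.8% of all probes on the array. It was set on no array for 3 probes, both of Cd8a and the 1 of Cd79a, against 25.1% of all probes. Between these lay the upstream Cd3e probe on 5 arrays, Ngp on 1 and the other Ms4a1 probe on 1. Wild-type replicates 1, 2 and 3 detected 7, 9 and 8 of the 13 probes, and transgenic replicates 1, 2 and 3 detected 8, 9 and 8. The genotypes thus overlapped in how many markers they showed. The lowest signal that the software counted as well above background was between 9.14 and 10.6 intensity units on the 6 arrays, and fainter signals have only a bound. Some signals above it were not flagged. Cd79a read 10.1 on wild-type replicate 2, where the lowest counted signal was 9.39.

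**Figure D1:**
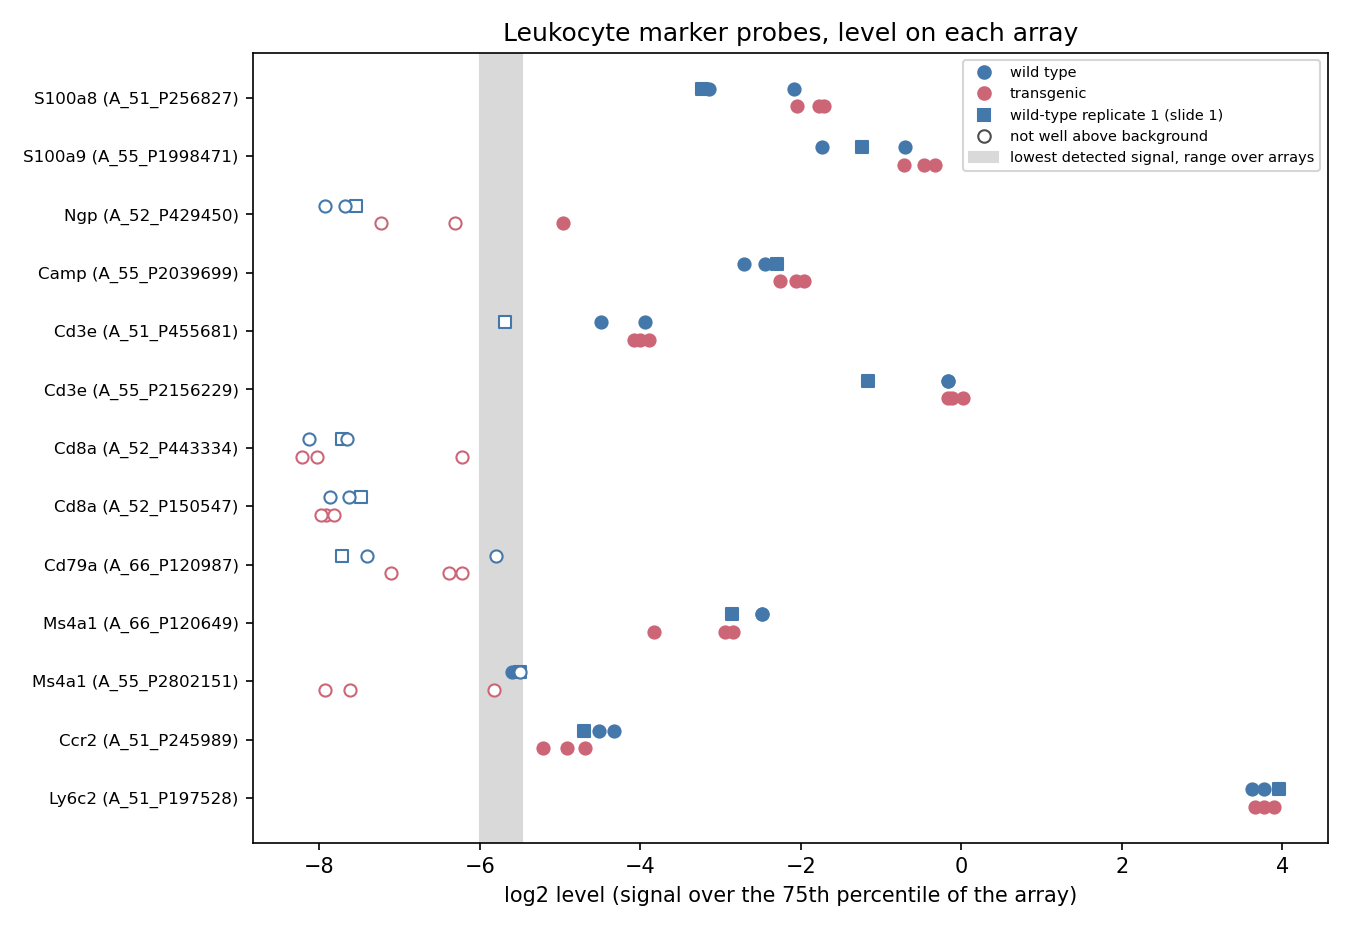
Level of each of the 13 leukocyte marker probes on each of the 6 arrays. The x axis is the log2 of the signal over the array's 75th percentile, blue is wild type, red is transgenic, the square is wild-type replicate 1, open symbols are not well above background and the grey band is the range over arrays of the lowest detected signal. The S100a8 and Camp values of the genotypes do not overlap, and both Cd8a probes and Cd79a have open symbols only.

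1 array stood apart from the others. Slide 1 carried only wild-type replicate 1, and slide 2 carried the remaining 5 arrays. On wild-type replicate 1, 14.2% of all tested genes were lowest of the 6 arrays by over 0.5 on the log2 scale, against 0.16% to 2.14% on each of the others. Of 96 tested genes in 5 lists of leukocyte genes, 26 (27.1%) were lowest there by that margin. Differences between genotypes are therefore given on all 6 arrays and, within slide 2, on 2 wild-type and 3 transgenic arrays.

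**Figure D2:**
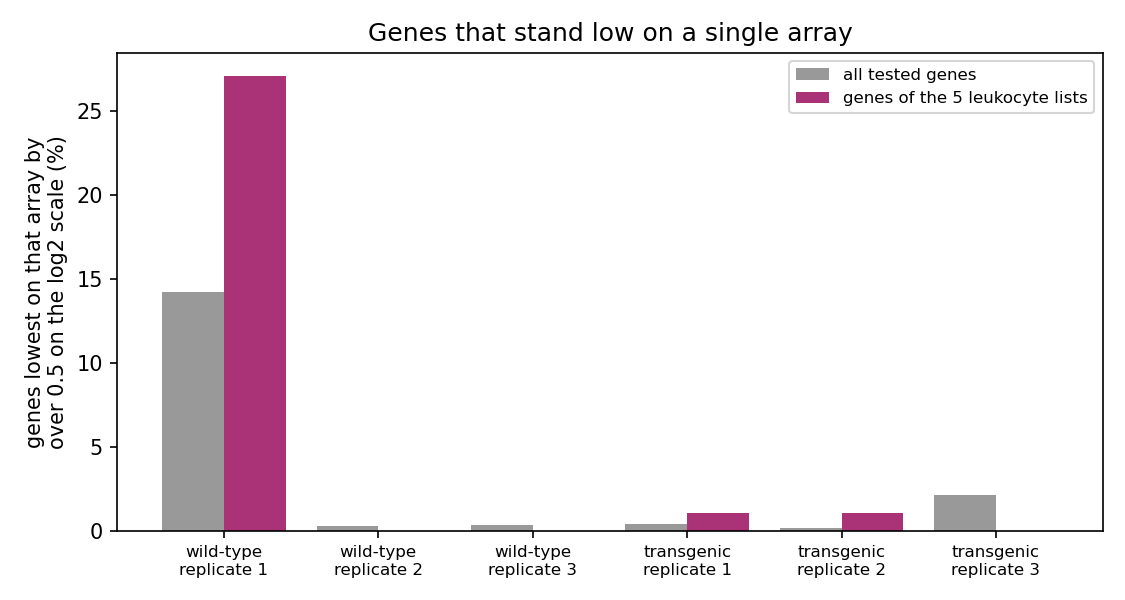
Share of genes that were lowest on 1 array by over 0.5 on the log2 scale. Grey bars are all tested genes, purple bars are the 96 tested genes of the 5 leukocyte lists, and the y axis is in percent. Wild-type replicate 1 holds 14.2% of all genes and 27.1% of the leukocyte genes, and no other array exceeds 2.14% of all genes.

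A probe was tested where every array of 1 genotype or of both read it well above background, and a difference is the mean log2 level in transgenic minus that in wild-type samples, ± SE from limma, with n = 3 per genotype. This let in 8 of the 13 marker probes, for 7 genes. Of these 8 probes, 0 passed a Benjamini-Hochberg adjusted p of 0.05 in limma, where 11 of all 38463 tested probes did (0.0286%). At an unadjusted limma p under 0.05 there were 4 of the 8, S100a8, S100a9 and Camp with higher and Ccr2 with lower values in transgenic samples, against 5.59% of all tested probes. Groups that did not overlap were found for 2 of the 8, S100a8 and Camp, both higher in transgenic samples, where 6.68% of all tested probes separated in that direction and 7.26% in the other.

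The neutrophil markers had higher values in transgenic samples without reaching the threshold. S100a8 and S100a9 encode the subunits of calprotectin, a calcium-binding protein that fills the neutrophil cytosol and is also made by monocytes. The log2 level of S100a8 was -3.23, -3.15 and -2.09 in wild-type replicates 1, 2 and 3. It was -2.04, -1.71 and -1.78 in transgenic replicates 1, 2 and 3. All transgenic samples lay above all wild-type samples, but wild-type replicate 3 stood far above the other wild-type samples and next to the lowest transgenic one. The difference was 0.98 ± 0.32, or 1.97-fold, with a limma p of 0.0214 and an adjusted p of 0.809. Within slide 2 it was 0.78 ± 0.33.

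S100a9 followed the same order of samples in part. Its level was -1.24, -1.74 and -0.70 in wild-type samples and -0.72, -0.32 and -0.46 in transgenic samples. Again wild-type replicate 3 was the high wild-type sample, and here it passed the lowest transgenic sample, so the groups overlapped. The difference was 0.73 ± 0.27, or 1.65-fold (limma p of 0.0360, adjusted p of 0.843), and 0.72 ± 0.32 within slide 2.

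Camp encodes the antimicrobial peptide cathelicidin, stored in the secondary granules of neutrophils. Its level was -2.30, -2.71 and -2.45 in wild-type samples and -2.06, -1.96 and -2.26 in transgenic samples. The groups did not overlap, and the gap between wild-type replicate 1 and transgenic replicate 3 was small. With another background correction, normexp, these 2 samples read -1.66 and -1.80, so the groups overlapped. The difference was 0.39 ± 0.14, or 1.31-fold (limma p of 0.0336, adjusted p of 0.843), and 0.49 ± 0.13 within slide 2.

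Ngp encodes neutrophilic granule protein, which is made by maturing neutrophils in the bone marrow. It was well above background only on transgenic replicate 2, with a signal of 18.9 intensity units. Its signal was 2.18, 2.31 and 2.60 in wild-type samples and 4.07 and 7.59 in transgenic replicates 1 and 3. As the mean of the transgenic samples did not exceed the detection limit of the wild-type samples, no fold is given and no test was run. Transgenic replicate 2 was also the sample with the highest level of S100a8, S100a9 and Camp, so all 4 neutrophil markers peaked in the same sample. The summed level of S100a8, S100a9 and Camp, in multiples of the array's 75th percentile, ran from 0.566 to 1.03 in wild-type and from 1.09 to 1.36 in transgenic samples. S100a9, whose own groups overlapped, weighs most in this sum. How often sums of other genes separate was not computed, and nothing is read from the gap.

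The monocyte markers were not higher in transgenic samples. Ccr2 is the chemokine receptor through which classical monocytes leave the marrow and follow its ligand Ccl2 into tissue. Its level was -4.70, -4.33 and -4.52 in wild-type samples and -4.91, -4.69 and -5.22 in transgenic samples. Transgenic replicate 3 was the lowest, and the groups overlapped only in that transgenic replicate 2 lay just above wild-type replicate 1. The difference was -0.42 ± 0.17, with a limma p of 0.0462 and an adjusted p of 0.843, and -0.52 ± 0.17 within slide 2.

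Ly6c2 encodes a surface protein of the Ly6 family that is abundant on classical monocytes. Its probe read 3.95, 3.63 and 3.77 in wild-type samples and 3.66, 3.77 and 3.90 in transgenic samples. The samples of the genotypes were interleaved. The difference was -0.01 ± 0.12 (limma adjusted p of 0.987), with a 95% interval from -0.31 to 0.29, and it was 0.08 ± 0.11 within slide 2, so its sign depends on the setting. The Ly6c1 probe, which shares 57 bases with it, read 4.17, 3.72 and 3.86 in wild-type samples and 3.87, 3.85 and 4.06 in transgenic samples, with a difference of 0.01 ± 0.14. On both probes wild-type replicate 1 was the highest and wild-type replicate 2 the lowest of the 6 samples. RNA of Ly6c1 and Ly6c2 cannot be told apart on these 2 probes.

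The T cell markers were split between a gene that was read and one that was not. Cd3e encodes a chain of the CD3 complex that carries the signal of the T cell receptor. The downstream probe read -1.16, -0.17 and -0.17 in wild-type samples and -0.17, -0.11 and 0.03 in transgenic samples. Wild-type replicate 1 stood far below the other 5 samples, which lay close together. The difference was 0.41 ± 0.28 (limma adjusted p of 0.843), and within slide 2 it was 0.08 ± 0.09.

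The upstream Cd3e probe read far lower than the downstream probe, and wild-type replicate 1 was again the low sample. It read -5.69, -3.94 and -4.49 in wild-type samples and -3.89, -4.08 and -4.00 in transgenic samples, and wild-type replicate 1 was the 1 array on which it was not well above background. The difference was 0.72 ± 0.43 (limma adjusted p of 0.843) and 0.23 ± 0.18 within slide 2, so on both probes most of the difference came from the array on slide 1. The upstream probe was tested only because all transgenic arrays read it, and nothing is read from its test. Which of the 2 probes follows Cd3e RNA was not tested. Cd8a encodes the alpha chain of the co-receptor of cytotoxic T cells. Its probes lie 5026 bases apart in the genome, and neither was well above background on any of the 6 arrays. The highest signal of either was 8.19 intensity units, on transgenic replicate 1, and all other signals of the pair were between 1.93 and 2.71.

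Of the B cell markers, Ms4a1 was read on all arrays and Cd79a on none. Ms4a1 encodes CD20, a membrane protein of B cells. The probe assigned to an Ensembl transcript read -2.86, -2.49 and -2.49 in wild-type samples and -2.95, -2.84 and -3.83 in transgenic samples. Transgenic replicate 3 was the low sample, and transgenic replicate 2 lay just above wild-type replicate 1, so the groups overlapped. The difference was -0.59 ± 0.28 (limma p of 0.0803, adjusted p of 0.843), and it was -0.28 without transgenic replicate 3. Within slide 2 the value was -0.72 ± 0.32.

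The Ms4a1 probe assigned to a RefSeq transcript lies 1075 bases away in the genome. It was well above background only on wild-type replicate 2, 1 of the 3 wild-type arrays. Its signal was 9.0, 11.6 and 11.9 in wild-type samples and 3.11, 10.5 and 2.47 in transgenic samples. As most wild-type signals were not well above background either, no fold is given and the probe was not tested. Cd79a encodes a chain of the signalling pair of the B cell receptor. Its signal was 1.92, 10.1 and 3.15 in wild-type samples and 4.44, 7.95 and 7.21 in transgenic samples, and none of these was well above background.

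**Figure D3:**
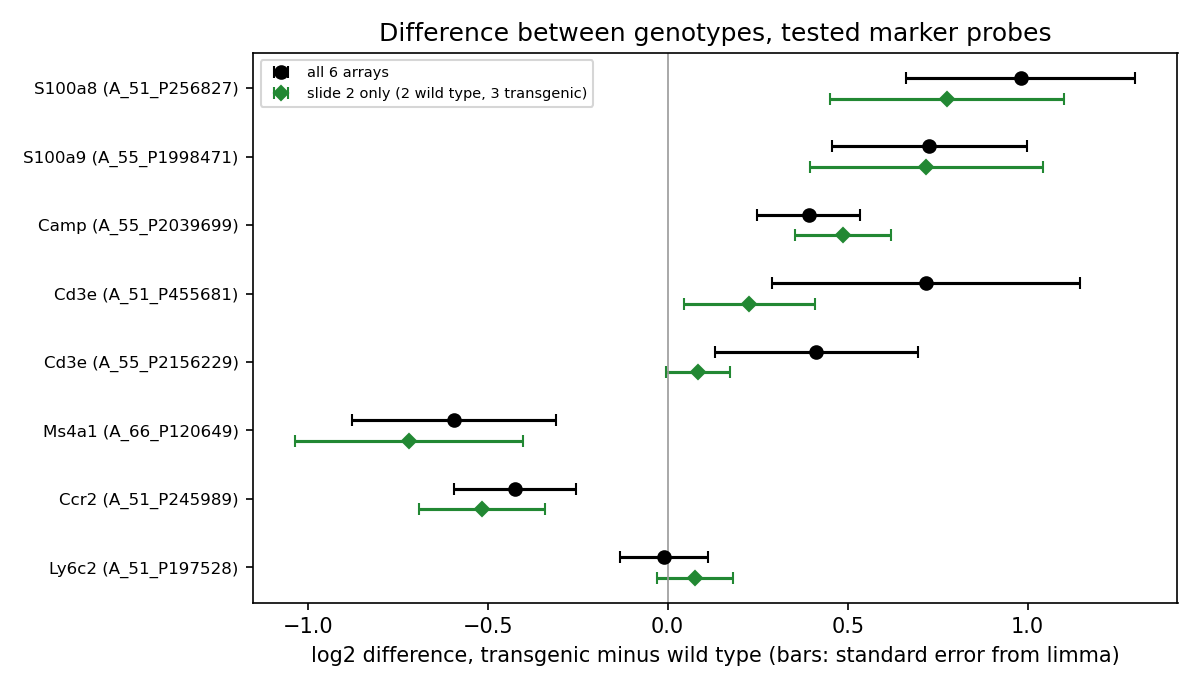
Difference in mean log2 level, transgenic minus wild type, of the 8 tested leukocyte marker probes. Circles use all 6 arrays, diamonds use the 5 arrays of slide 2, and bars are the standard error from limma. S100a8, S100a9 and Camp lie above 0 and Ccr2 and Ms4a1 below 0 in both, while the Cd3e values shrink from 0.72 and 0.41 to 0.23 and 0.08 within slide 2.

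The pattern of each marker over the 6 samples was set against that of 18143 tested named genes by Pearson's r, as a description over samples that share slides and genotypes. S100a8 was most like Zfp512b, Gm32569 and Adprhl1 (r of 0.997, 0.992 and 0.986), and S100a9 was the 55th closest gene to it, with r of 0.94. S100a9 was most like Taf6l, Polq and Prpf19 (r of 0.987, 0.984 and 0.975), and among the genes most like Camp were Man2b2 and Gm36767 (r of 0.961 and 0.953). For Ccr2 the closest were Prdm8, Nras and Gm12069 (r of 0.992, 0.991 and 0.989), with Ms4a1 in 36th place at r of 0.94. For Ms4a1 they were Olfr392, Gm17821 and 4933438K21Rik (r of 0.999, 0.998 and 0.998). The downstream Cd3e probe was closest to 1110028F11Rik, Tlr7 and Scgb1b3, each with r of 0.999, and Ly6c2 to Gm41523, Pcbp3 and Ptdss1 (r of 0.993, 0.992 and 0.992). With 6 samples many genes reach such values, so the S100 pair was close but not closest to each other.

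S100a8 and S100a9 lie side by side in the genome, and their promoters are shown because the levels of these genes followed a similar pattern over the samples. The sequences are the 250 bases before each transcription start from RefSeq on build GRCm38.p6, S100a8 at chr3:90668821-90669070 on the plus strand and S100a9 at chr3:90695722-90695971 on the minus strand. A table of promoters held 9 of the 10 marker genes. Both strands of the 250 bases before each start were searched for 3 motifs: TTGCNNAA of C/EBP factors, which direct granulocyte genes, the TATA box TATAAA and TTCNNNGAA of STAT factors. Capitals mark the TATAAA that begins 30 bases before the start of S100a8 and the C/EBP match that begins 236 bases before the start of S100a9.
S100a8 promoter: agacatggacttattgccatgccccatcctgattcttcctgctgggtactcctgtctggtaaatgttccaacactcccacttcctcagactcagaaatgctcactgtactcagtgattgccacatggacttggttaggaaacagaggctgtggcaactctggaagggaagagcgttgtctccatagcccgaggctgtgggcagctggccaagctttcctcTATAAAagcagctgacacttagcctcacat
S100a9 promoter: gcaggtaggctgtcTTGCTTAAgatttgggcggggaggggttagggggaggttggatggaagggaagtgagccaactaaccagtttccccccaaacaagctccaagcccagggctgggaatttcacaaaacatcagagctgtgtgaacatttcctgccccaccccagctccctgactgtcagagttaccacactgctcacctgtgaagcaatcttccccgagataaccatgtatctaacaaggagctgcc

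The S100a8 and S100a9 promoters shared none of the 3 motifs. TTGCNNAA was also found for Ngp and Cd8a, so 3 of 9 genes held it, against 9.56% of 32851 promoters of the same length. TATAAA was found for S100a8 alone (12.4% of promoters) and TTCNNNGAA for none of the 9 genes (7.02%). No match overlapped another. A match is a stretch of letters and shows no binding.

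Other genes of the same cell types were read from lists, which are described by counts and medians. Genes named from a list are up to 3 with its smallest p and the gene with the highest mean level. Separation of those with the smallest p follows from that choice, and nothing is read from it. Over the 5 lists of neutrophil, monocyte, T and NK cell, B and plasma cell and pan-leukocyte genes, 96 genes other than the markers were tested. Of these, 0 passed the adjusted threshold in limma, against 0.0401% of all tested genes. A higher value in transgenic samples was found for 76 of 96, against 49.9% of all tested genes, and 18 had an unadjusted limma p under 0.05, all of them higher (3.13% of all tested genes). Groups separated upward for 23 (7.41% of all genes) and downward for 1 (7.5%). The median difference was 0.27, while the median of all tested genes lay at 0.00. Of the 96 genes, 10 were tested only because all transgenic arrays read them and 2 only because all wild-type arrays did. Of these 10, Cd2 is among the 18, and Cd2 and Mpo are among the 23. Both counts thus rest in part on the filter, and they were not repeated for genes read on all 6 arrays. Among the 84 read on all 6 arrays, 65 were higher (47.4% of all such genes) and the median was 0.24.

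Both the share and the median of the leukocyte lists depended on the array of slide 1 and on the background correction. Without that array 64 of 96 genes were higher (47.2% of all genes) and the median was 0.10, against -0.01 for all tested genes. Normexp correction adds an offset of 50 intensity units, which shrinks differences of faint genes. With it 45 of 96 were higher (36.3% of all genes) and the median was -0.01, against -0.05 for all tested genes.

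Among 16 tested neutrophil and granule genes 14 had higher values, with a median of 0.33 (0.11 within slide 2). Lcn2, an iron-scavenging protein of neutrophil granules that astrocytes also make, differed by 0.79 ± 0.17 and Chil1, a chitinase-like protein, by 0.57 ± 0.12, and in both the groups did not overlap. Mpo, the granule enzyme myeloperoxidase, differed by 0.87 ± 0.36, by 0.51 within slide 2 and by -0.0067 with normexp. Its lowest sample, wild-type replicate 1, was not well above background. Mpo and some others of the 14 were tested only because all transgenic arrays read them, and nothing is read from the test of Mpo. Over genes of the list read on all 6 arrays the median was 0.34. Csf3r, the receptor for granulocyte colony-stimulating factor, differed by 0.08 ± 0.27. Its mean level of 6.57 was above that of the cerebellar gene Calb1 (6.28), and what else its probe may read was not tested. The limma adjusted p of these genes was between 0.400 and 0.949. Of the defining neutrophil markers outside the 4 genes above, Ly6g and Elane were well above background on all 6 arrays, Mpo on 5 and the granule gene Ltf on 2.

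Among 16 tested monocyte genes 14 had higher values, with a median of 0.30 (0.13 within slide 2), so the list lay above 0 where Ccr2 and Ly6c2 did not. Lyz1, a lysozyme gene, was at -0.63, -0.54 and -0.46 in wild-type samples and 0.45, 0.60 and 0.82 in transgenic samples. This gave 1.17 ± 0.12 (limma adjusted p of 0.0854), and the groups were far apart. Whether the Lyz1 probe also reads other lysozyme genes was not tested. Chil3, a chitinase-like protein of monocytes and macrophages, differed by 1.56 ± 0.45 and Ms4a6c by 0.89 ± 0.23, also without overlap. Ms4a4c differed by 0.32 ± 0.17 (0.16 within slide 2), and its groups overlapped. Of the defining monocyte markers in the list, Chil3 was well above background on all 6 arrays and Plac8 on 4.

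Among 23 tested T and NK cell genes 18 had higher values, with a median of 0.26 (0.09 within slide 2). Ccl5, a chemokine made by T and NK cells and also by glia and macrophages, was at -3.33, -3.24 and -3.14 in wild-type samples and -1.11, -2.13 and -1.16 in transgenic samples. The difference was 1.77 ± 0.28 (limma adjusted p of 0.232), without overlap. Cd2, an adhesion molecule of T and NK cells, was well above background on the 3 transgenic arrays and on 0 wild-type arrays. Against the detection limit of the wild-type arrays it was 1.37-fold higher (measured means of -5.22 and -5.99, limma adjusted p of 0.676), but with normexp its difference was -0.061. As it was tested only because it was high in 1 group, nothing is read from its test. Cd4 differed by 0.67 ± 0.36 and the NK receptor gene Klrb1c by 0.43 ± 0.43. The mean level of Klrb1c was 5.48, above that of Mbp (4.85), and what else its probe may read was not tested. For Cd4 and Klrb1c wild-type replicate 1 was the low sample, and within slide 2 the values were 0.29 and -0.10. Of the defining T cell markers, Cd3e, Cd4 and Lck were well above background on all 6 arrays, Cd3d on 5 and Cd3g and Cd8a on 0.

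Of 18 tested B and plasma cell genes 10 had higher values, with a median of 0.08 and, within slide 2, of -0.08. Cd72 (1.72 ± 0.32) and Blnk (0.60 ± 0.10), a surface receptor and a signalling adaptor of B cells that myeloid cells also express, were higher without overlap. Fcer2a, the low-affinity IgE receptor, was lower without overlap (-0.60 ± 0.25, and -0.32 within slide 2). Cd37 differed by 0.24 ± 0.46, and by -0.30 within slide 2. The limma adjusted p of these 4 was between 0.260 and 0.911. Among the defining B cell markers Pax5 and Ms4a1 were well above background on all 6 arrays, Cd79b on 5 and Cd79a on 0.

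Pan-leukocyte genes, which microglia share with blood leukocytes, were higher for 21 of 24, with a median of 0.33 (0.18 within slide 2). Cd52, a short surface glycoprotein, read -0.86, -0.80 and -0.55 in wild-type samples and 0.96, 0.71 and 1.16 in transgenic samples, a difference of 1.68 ± 0.15 (limma adjusted p of 0.0698). Itgb2, the common chain of leukocyte integrins, differed by 0.89 ± 0.12 and Rac2, a GTPase of blood cells, by 0.74 ± 0.12. These 3 genes, named for their small p, separated the genotypes. Groups separated upward for 11 of the 24, against 7.41% of all tested genes. Ptprc, which encodes CD45, differed by 0.40 ± 0.46 and by -0.15 within slide 2.

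**Figure D4:**
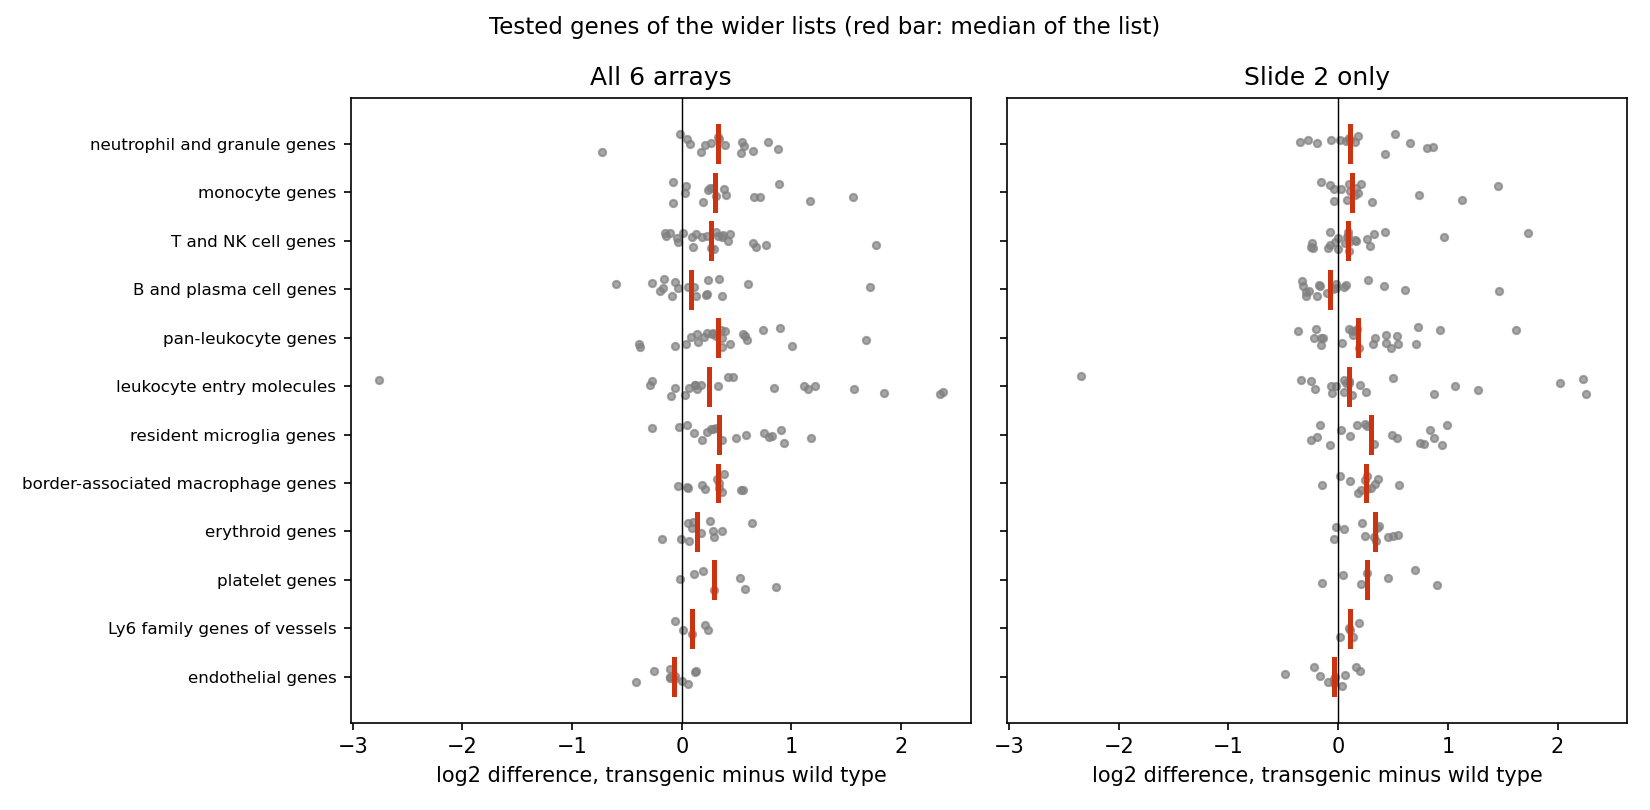
Difference in log2 level, transgenic minus wild type, of every tested gene in 12 lists. Grey points are genes, red bars are list medians, the left panel uses all 6 arrays and the right panel the 5 arrays of slide 2. The medians of the neutrophil, monocyte, and T and NK cell lists move from 0.33, 0.30 and 0.26 to 0.11, 0.13 and 0.09, and that of the microglia list from 0.34 to 0.30.

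Genes of other cells that share these markers or come with them were read alongside. Of 18 resident microglia genes, 16 had higher values, with a median of 0.34 (0.30 within slide 2). Groups separated upward for 10 of the 18, against 7.41% of all tested genes. Trem2 (0.75 ± 0.08), C1qc (0.90 ± 0.12) and C1qb (0.80 ± 0.11), named for their small p, were among these 10. The microglia list, a sum in which Siglech weighs most, came to between 97.2 and 227.2 in wild-type and between 208.8 and 225.7 in transgenic samples. Siglech differed by 0.36 ± 0.46, and by -0.19 within slide 2. Of 12 genes of macrophages at the brain's borders 11 had higher values (median 0.33), among them Mrc1 (0.37 ± 0.10), Ms4a7 (0.56 ± 0.17) and Cd163 (0.54 ± 0.17), while Maf was at -0.03 ± 0.27. The list summed to between 4.93 and 6.68 in wild-type and between 5.82 and 6.24 in transgenic samples.

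Blood left in the vessels was followed by erythroid and platelet genes. Of 12 erythroid genes 10 had higher values (median 0.14, and 0.33 within slide 2), and the list summed to between 444.0 and 547.9 in wild-type and between 510.8 and 676.6 in transgenic samples. The haemoglobin genes Hba-a1 and Hba-a2 differed by 0.30 ± 0.15 and 0.29 ± 0.14, and Hemgn by 0.25 ± 0.09. Hba-a1 and Hba-a2 had nearly equal levels on every array, and whether their probes read separate RNA was not tested. What else the Hemgn probe may read was not tested either. Klf1 was well above background on the 3 transgenic and on 0 wild-type arrays. It was 1.16-fold higher against the detection limit (measured means of -5.46 and -6.10, limma adjusted p of 0.459), and at -0.16 with normexp. Nothing is read from its test for the same reason as for Cd2. The platelet list had higher values for 6 of 7 genes (median 0.30), with Gp9 at 0.86 ± 0.37 (0.45 within slide 2), Clec1b at 0.58 ± 0.34, Treml1 at 0.30 ± 0.15 and Gp1bb at 0.11 ± 0.13. With normexp 3 of 7 were higher, the list median was -0.0048, and Gp9 and Clec1b were at 0.14 and 0.02. The sums of the list ran from 0.452 to 0.535 in wild-type and from 0.502 to 0.749 in transgenic samples. The part that microglia, border macrophages or retained blood have in the neutrophil marker values was not tested.

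Because the Ly6c2 probe nearly matches that of Ly6c1, endothelial and Ly6 family genes were read beside it. Endothelial genes had lower values for 7 of 11 (median -0.07). Groups separated downward for 2 of the 11 and upward for 1, against 7.5% and 7.41% of all tested genes. The 2 were Tie1 at -0.26 ± 0.09 and Cldn5, a tight junction protein, at -0.42 ± 0.21. Cldn5 read 2.25, 2.52 and 2.39 in wild-type samples and 1.53, 2.21 and 2.18 in transgenic samples, so its gap was small. The 1 was the glucose transporter gene Slc2a1 at 0.06 ± 0.08. Emcn was at -0.11 ± 0.09. The Ly6 genes Ly6h, Ly6d, Ly6e and Ly6a differed by 0.21 ± 0.15, 0.24 ± 0.25, 0.10 ± 0.11 and -0.06 ± 0.14, and Ly6a was added after its value was seen. None of these genes passed the adjusted threshold in limma.

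Molecules that draw leukocytes into tissue were higher for 17 of 22 tested genes, with a median of 0.25 (0.10 within slide 2). Over genes of the list read well above background on all 6 arrays the median was 0.14. Groups separated upward for 6 of the 22 and downward for 1, against 7.41% and 7.5% of all tested genes. Some of the 6 and of the 17, Ccl8 among them, were tested only because all transgenic arrays read them. Nothing is therefore read from these counts. The chemokines Cxcl10 (2.38 ± 0.42) and Ccl2 (1.84 ± 0.33), named for their small p, were among the 6, each with a limma adjusted p of 0.287. Cx3cl1 was at 0.07 ± 0.10. With normexp Cxcl10 and Ccl2 were at 1.34 and 0.91. Ccl8 was well above background on the 3 transgenic and on 0 wild-type arrays. It was 2.51-fold higher against the detection limit (measured means of -4.35 and -6.70, limma adjusted p of 0.287), and with normexp its log2 difference was 0.24. Nothing is read from its test for the same reason as for Cd2. Ccl2, the ligand of Ccr2, read -3.73, -4.27 and -4.26 in wild-type samples and -2.31, -2.81 and -1.61 in transgenic samples. Its highest sample, transgenic replicate 3, was the sample with the lowest level of the receptor gene. That sample was also the lowest for Ms4a1 (-3.83), and a link between the levels of Ccl2 and Ccr2 was not tested.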

How the data were processed

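The deposited scanner files hold intensity values per spot on a linear scale, background-subtracted and detrended, with flags for signal well above background, saturation and outliers; per the file headers they were read with Feature Extraction 10.7.1.1 on build mm9, and per the submitters' processing notes with version 9.5.1.1. Where a spot was not above background the software put a surrogate value, per the file headers, so faint levels are bounds. The authors' value table (intensity) equalled a quantile normalization of these signals within 0.01 on the log2 scale for at least 99.99% of probes per array, with a median of 59.9 per array. It served as an alternative.

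Left out were control spots and, on each array, 39 to 84 spots marked as outliers. None was saturated, and repeated spots were averaged. Log2 signals were set to each array's 75th percentile (405.7 on wild-type replicate 1, 535.0 to 609.2 on the others). Genotypes were compared in limma 3.58.1 (R 4.3.3), 2-sided, with Benjamini-Hochberg adjustment over 38463 probes, and the steps were tested on simulated data. A probe that no array of 1 genotype read well above background has a fold against the detection limit, the lowest signal counted as well above background. It sets the other genotype's mean against, per array, the higher of that limit and its own signal. With another background correction this fold is not a lower bound. In lists each gene stands by its tested probe with the highest mean level. Names of genes outside the markers came from the files and a RefSeq table. The number of arrays limits the precision.

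The markers, gene lists and tests were chosen with earlier results of these data known. Named are all markers, Ly6c1, the tissue markers, up to 3 genes per list with the smallest p and its gene with the highest mean level, and for each marker probe detected on all arrays the 3 genes most like it. The defining markers Ly6g, Elane, Ltf, Plac8, Lck, Cd3d, Cd3g, Cd79b and Pax5 come from marker lists. Some genes that this rule takes are not reported here. Alternatives covered background correction, scaling, filter, the value table, slide as a block, variance model, probe choice, threshold, detection flag and leaving out each sample. The counts of leukocyte genes without wild-type replicate 1 and with normexp were added after seeing the data.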

Additional observations from a re-analysis of the deposited data

How the results depend on the processing

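No marker probe passed the adjusted threshold under any alternative, and 7 of the 8 tested probes kept their sign in all. Ly6c2 A_51_P197528 turned to 0.0028 with normexp, 0.0153 with quantile scaling, 0.0151 with the authors' table, 0.076 with slide as a block and 0.048 with array weights, and leaving out 1 sample gave -0.088 to 0.076. The S100a8 difference ranged from 0.58 (normexp) to 1.35, that of S100a9 from 0.47 to 0.99, Camp from 0.19 (normexp) to 0.52, Ccr2 from -0.55 to -0.27 and Ms4a1 from -0.78 to -0.28. The upstream Cd3e probe ranged from 0.06 (normexp) to 1.1 and the downstream probe from 0.08 to 0.58. With normexp the Camp groups overlapped. The S100a8 groups stayed apart only narrowly, at -1.54 in wild-type replicate 3 and -1.53 in transgenic replicate 1.

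The count of called probes in the whole table was 11. It became 37 with normexp, 24 with median scaling, 4 without a filter, 23 with detection on all 6 arrays, 34 with an intensity trend, 94 with array weights and 45 at an adjusted p under 0.1. Leaving out 1 sample at a time gave 0 to 11. In the wider leukocyte lists the median of 0.27 became -0.0097 with normexp and ranged from 0.097 (without wild-type replicate 1) to 0.35 (without wild-type replicate 3) on leaving out 1 sample.

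With normexp the sign turned for Cd2 (-0.061), Gp1bb (-0.014), Klf1 (-0.16), Ly6d (-0.096), Mpo (-0.0067) and Treml1 (-0.0048). With slide as a block, and equally without wild-type replicate 1, it turned for Cd37 (-0.30), Csf3r (-0.19), Klrb1c (-0.097), Maf (0.26), Ptprc (-0.15) and Siglech (-0.19). Array weights turned the same 6 genes, to -0.16, -0.092, -0.028, 0.22, -0.040 and -0.096. Leaving out 1 sample gave -0.30 to 0.55 for Cd37, -0.19 to 0.24 for Csf3r, -0.097 to 0.69 for Klrb1c, -0.19 to 0.26 for Maf, -0.15 to 0.68 for Ptprc and -0.19 to 0.65 for Siglech. The cause was not tested. No paired analysis was run, because the labels give no replicate number shared by the genotypes. Sample titles carry neighbouring numbers across genotypes, and the labels do not say whether such neighbours are related, so they were not used to pair samples.

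With the flag for a positive and significant signal in place of well above background, 11 of 13 marker probes were detected on all arrays of 1 genotype or of both (80.8% of all probes). Faint signals, as of Ngp, Cd8a and Cd79a, are limited by the detection limit.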
